A study of Mus musculus with 6 samples.

Results

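The genes described here encode the histones, the proteins around which nuclear DNA is wound. They were taken as the probe sets with a single gene symbol that names a histone gene of the H1, H2A, H2B, H3 or H4 class. The MHC genes, whose symbols begin in a like way, were left out, and a gene with several probe sets was read from the brightest by mean value. The rule found 44 probe sets for 43 of the 19308 genes with 1 symbol. The study used 6 Affymetrix arrays. Of these, 3 hold RNA of iPS cells (induced pluripotent stem cells) and 3 RNA of ntES cells (embryonic stem cells made by nuclear transfer). Both kinds of cell were made from tail-tip fibroblasts of G3 Terc-/- mice, so all 6 samples lack the RNA template of telomerase and no array holds cells with it. In nuclear transfer an egg without its own nucleus reprograms a somatic one, whereas iPS cells come from somatic cells given reprogramming factors. Both were grown on feeder layers of mouse embryonic fibroblasts treated with mitomycin C, and feeder RNA may be part of each sample. The design text gives the arrays of a group as biological repeats of a cell line. Where a group stands for a single line, line and way of reprogramming cannot be told apart. The p-values then describe only how far these arrays spread.

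Each nucleosome holds a pair each of H2A, H2B, H3 and H4, and the linker histone H1 binds where the DNA enters and leaves. Most histone proteins come from replication-dependent genes, which lie in clusters, are switched on together in S phase and give mRNAs that end in a stem-loop in place of a poly(A) tail. Replacement variants such as H2A.Z mostly come from single genes outside the clusters and are mostly made throughout the cell cycle. A further set is made chiefly in testis or oocyte. H2ax and H2aj are counted with the replacement variants here, though H2aj is a neighbour of the replication-dependent H4f16. Whether the RNA of H2ax or H2aj depends on S phase was not tested. Pluripotent stem cells cycle fast and spend much of the cycle in S phase, so replication-dependent histone RNA is abundant in them. The sources used here name the labelling kit but not how the RNA was primed. Of 27 replication-dependent genes 18 read at or above the median probe set, with means up to 12.81. Their RNA was thus labelled at least in part, but how fully mRNAs without a poly(A) tail were labelled is not known. Sister genes of a class are nearly alike in their coding sequence, and a probe set with 1 symbol may read RNA of a sister, so each replication-dependent member is uncertain as a single gene.

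The values are log2 expression, on which a difference of 1 is a 2-fold change, and they ran from 3.61 to 13.66 over 23344 probe sets. The array medians lay between 7.61 and 7.70, but the spread over probe sets did not match, with an SD of 1.51 on ntES replicate 1, 1.59 on iPS replicate 3 and 1.61 to 1.74 on the others. Of 2174 genes with a mean of 10 or more, 99.6% had their lowest ntES value on ntES replicate 1 and 99.8% their highest on ntES replicate 3. Of the 27 replication-dependent histone genes, 11 had a mean of 10 or more. Pou5f1, Sox2 and Nanog, markers of the labelled cell type, read between 11.11 and 12.44 on all 6 arrays. These are 3 of 26 pluripotency markers on the list used below. Of the 26, 8 were called lower in ntES cells, and only Dppa3, with a mean of 7.61, read below the median probe set.

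In ntES cells 3 of the 43 histone genes rose and 4 fell, at an adjusted p under 0.05 in a limma fit over all probe sets. Of all probe sets 11.3% passed. Among the 19308 genes 11.4% passed, 5.25% as higher and 6.16% as lower, so 7 of 43 (16.3%) is a share not far above the background. The testis linker H1f6, the variant H2az1 and the H2B gene H2bc4 rose. The linker variant H1f10, the variants H2aj and H2ax and the H3 gene H3c15 fell. The other 36 did not pass, and 14 members passed an unadjusted p of 0.05, as did 5736 of the 23344 probe sets. The groups did not overlap for 14 of the 43 members, against 26.8% of all genes. The median difference of the 43 was -0.13 (log2, ntES minus iPS), beside 0.04 over all genes, and 28 of the 43 lay below 0, beside 40.1% of all genes. In a sample of many cells, fewer cells with an RNA and less of it per cell cannot be told apart.

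**Figure D1:**
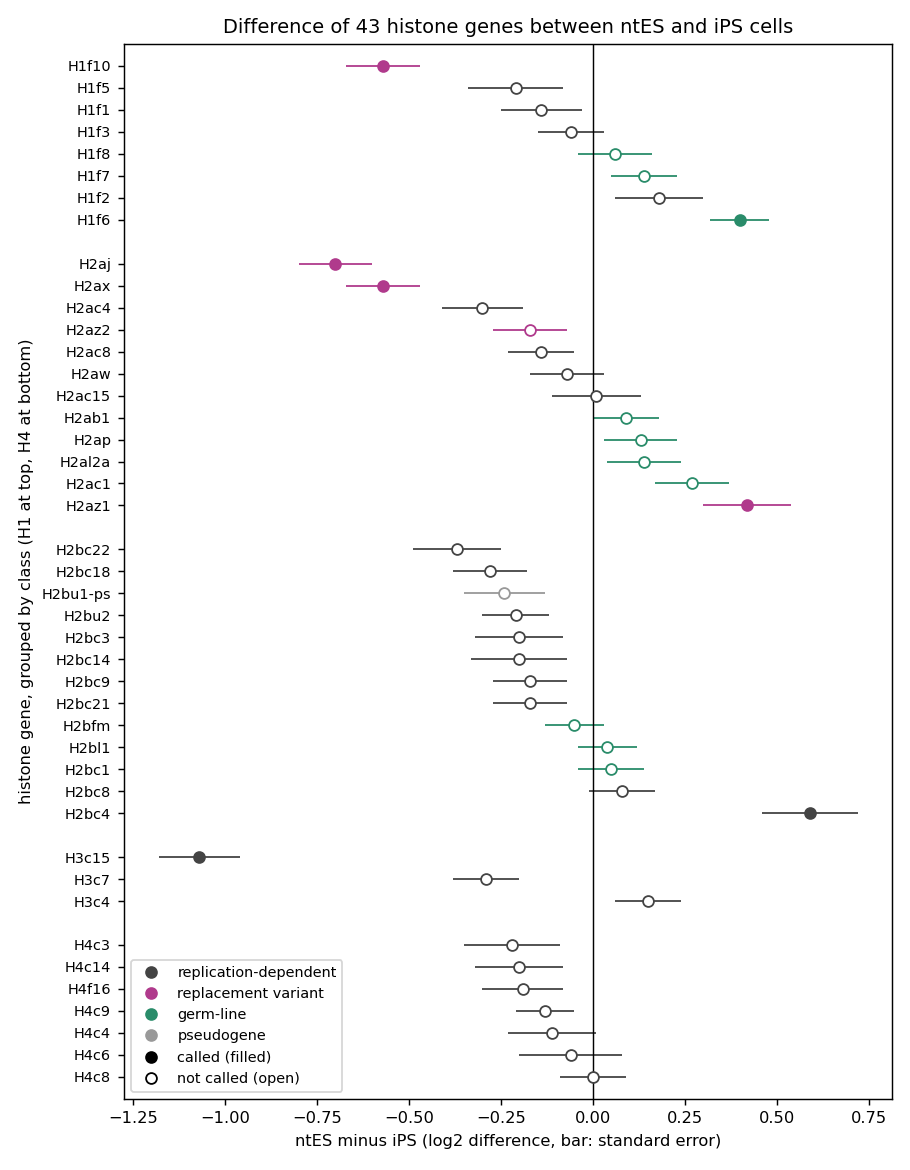
Log2 difference, ntES minus iPS, of each of the 43 histone genes, with its standard error from the limma fit as a bar, grouped by class; filled points passed an adjusted p under 0.05. H3c15 lies farthest left at -1.07 and H2bc4 farthest right at 0.59, and most replication-dependent genes lie slightly left of 0.

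The replacement variants among the members held most of the changes, though only 5 met the symbol rule. Of these 3 fell, 1 rose and 1 did not pass, which is 80.0% called, beside 11.4% of all genes. The share depends on which variants are counted. Of 5 measured variant genes outside the rule 1 fell and none rose. Of 5 probe sets that hold an H3.3 gene beside another gene none passed. The kinds were chosen with earlier results of these data known. The rise, of H2az1, passed under only 7 of 15 alternative settings. H2aj encodes H2A.J, a variant known to build up in senescent cells with lasting DNA damage. It read 8.95, 8.90 and 8.74 on the iPS arrays and 8.01, 8.14 and 8.35 on the ntES arrays (log2). All 3 ntES values lay below all 3 iPS values. The difference was -0.70 ± 0.10 (log2, SE, n = 3 each; adjusted p = 0.002, limma), or 1.62-fold higher in iPS cells. H2ax encodes H2A.X, which is phosphorylated around DNA double-strand breaks. It read 9.79, 9.86 and 9.72 in iPS and 9.08, 9.14 and 9.45 in ntES cells, again without overlap. The level was 1.48-fold higher in iPS cells, with a difference of -0.57 ± 0.10 (log2, SE, n = 3 each; adjusted p = 0.00647, limma). H1f10, a linker variant that does not depend on replication, read 9.74, 9.69 and 9.57 in iPS and 8.94, 9.10 and 9.25 in ntES cells. It also differed by -0.57 ± 0.10 (log2, SE; adjusted p = 0.00418, limma) without overlap of the groups. H2aj and H1f10 passed under all 15 alternative settings tried. Of these settings H2ax missed the threshold only without ntES replicate 2 (adjusted p = 0.0539, limma).

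H2A.Z, which sits at promoters and is essential in the early embryo, moved the other way for 1 of its genes. H2az1 read 11.89, 11.95 and 11.68 in iPS and 12.07, 12.24 and 12.49 in ntES cells. The ntES values were higher without overlap, though the gap between ntES replicate 1 and iPS replicate 2 was small. The difference was 0.42 ± 0.12 (log2, SE, n = 3 each; adjusted p = 0.0436, limma), a 1.34-fold rise. Another probe set of H2az1 rose by 0.49 ± 0.11 (adjusted p = 0.0215, limma). The brighter probe set did not pass after median centring (0.37 in difference; adjusted p = 0.0846, limma) or with a variance trend (0.0588). Leaving out any iPS array, or ntES replicate 2 or 3, also ended the call, with an adjusted p of 0.13, 0.0944, 0.136, 0.151 and 0.0533 in that order. After quantile normalization it passed at 0.42 ± 0.04 (adjusted p = 0.00014, limma). The sister gene H2az2 differed by -0.17 ± 0.10 (adjusted p = 0.321, limma), and whether the pair differs in its response was not tested. H1f0, H3f3a and H3f3b have no probe set with a single symbol and are not among the members.

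**Figure D2:**
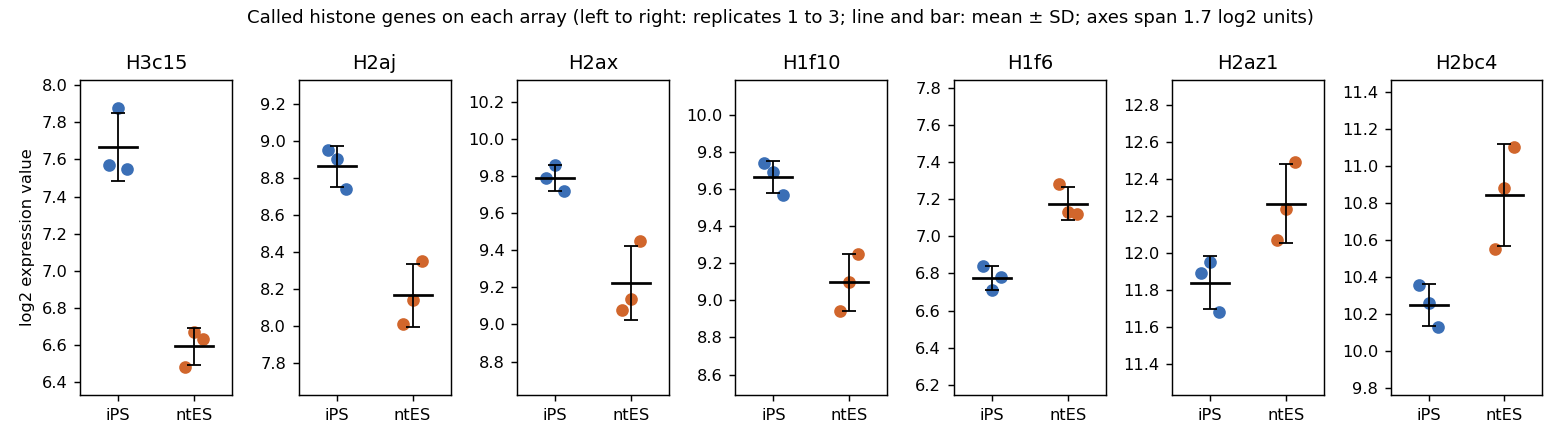
Log2 expression of the 7 histone genes that passed the test on each array, iPS in blue and ntES in orange, with the mean as a line and the SD over 3 arrays as a bar; every panel spans 1.7 log2 units and the panels start at different levels. In each panel the 3 ntES values lie wholly above or wholly below the 3 iPS values.

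Of 27 replication-dependent genes, H2bc4 rose and H3c15 fell, and 25 did not pass. That is 7.41% called, beside 11.4% of all genes, which for so few genes is a share near the background. H3c15, a replication-dependent H3 gene of the chromosome 3 cluster, had the largest change of any member. It read 7.57, 7.88 and 7.55 in iPS and 6.48, 6.67 and 6.63 in ntES cells. The iPS values lay around the median probe set of 7.66, and all ntES values lay below it. The difference was -1.07 ± 0.11 (log2, SE, n = 3 each; adjusted p = 0.000195, limma), so that the level was 2.11-fold higher in iPS cells. It passed under all 14 alternatives that could give it a value. H2bc4, an H2B gene of the chromosome 13 cluster, read 10.36, 10.26 and 10.13 in iPS and 10.55, 10.88 and 11.10 in ntES cells. It rose 1.51-fold, by 0.59 ± 0.13 (log2, SE, n = 3 each; adjusted p = 0.0169, limma), and the groups did not overlap. H2bc4 lost its call when any iPS array or ntES replicate 2 was left out, at an adjusted p of 0.0543, 0.0731, 0.06 and 0.0907. None of the other 12 H2B members passed, and the other H2B genes differed by -0.37 to 0.08.

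Of the 25 replication-dependent genes that did not pass, 21 lay below 0 and 4 above, with a median of -0.17 and a range from -0.37 to 0.18. All 7 H4 genes lay at or below 0, from H4c3 at -0.22 ± 0.13 to H4c8 at 0.00 ± 0.09. H4c14 differed by -0.20 and H4c9 by -0.13 (adjusted p = 0.337 and 0.344, limma), and of the 7 the groups did not overlap for H4c9 alone. H4 is the core histone with the fewest variants, and H4c4 read 12.96, 12.95 and 12.68 in iPS and 12.54, 12.77 and 12.93 in ntES cells, with overlap. Of the 4 replication-dependent linker genes, H1f5, H1f1 and H1f3 differed by -0.21, -0.14 and -0.06 and H1f2 by 0.18. Among the H2A genes, H2ac4 differed by -0.30 ± 0.11 (adjusted p = 0.124, limma) without overlap of the groups, and H2ac15 by 0.01 ± 0.12. Among the H2B genes, H2bc22 and H2bc18 differed by -0.37 and -0.28 (adjusted p = 0.0716 and 0.0992, limma), also without overlap. H3c7, whose values between 5.45 and 5.97 lay far below the median probe set, differed by -0.29 and H3c4 by 0.15. The standard errors of these genes lay between 0.08 and 0.14. With H2bc4 and H3c15 counted in, 15 of 20 genes on chromosome 13 and 4 of 4 on chromosome 3 lay below 0, as did both on chromosome 11 and the 1 on chromosome 6.

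The order of the arrays within each group was much the same for these genes as for other bright genes, and the part of array spread in the group difference was not tested directly. On ntES replicate 1, the array of narrowest spread, 25 of 27 replication-dependent genes had their lowest ntES value, and 19 of 27 had their highest on ntES replicate 3. All 11 with a mean of 10 or more did both, as nearly all bright genes did. Relative to each gene's mean, the median of the 27 was 0.07, 0.14 and 0.00 on iPS replicates 1 to 3 and -0.26, -0.03 and 0.09 on ntES replicates 1 to 3. The same medians over all genes with a mean of 10 or more were 0.07, 0.08, -0.12, -0.21, -0.02 and 0.19. On ntES replicate 3 and iPS replicate 3 the bright genes as a whole thus shifted by more, and in opposite directions, than the 27 did. Only 11 of the 27 were bright, so the sets differ in level. The median of ntES replicate 3 minus ntES replicate 1 was 0.47 for these 11, 0.39 for the 27 and 0.40 for all bright genes. Of bright genes 54.4% lay below 0, beside 9 of the 11 bright replication-dependent genes.

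**Figure D3:**
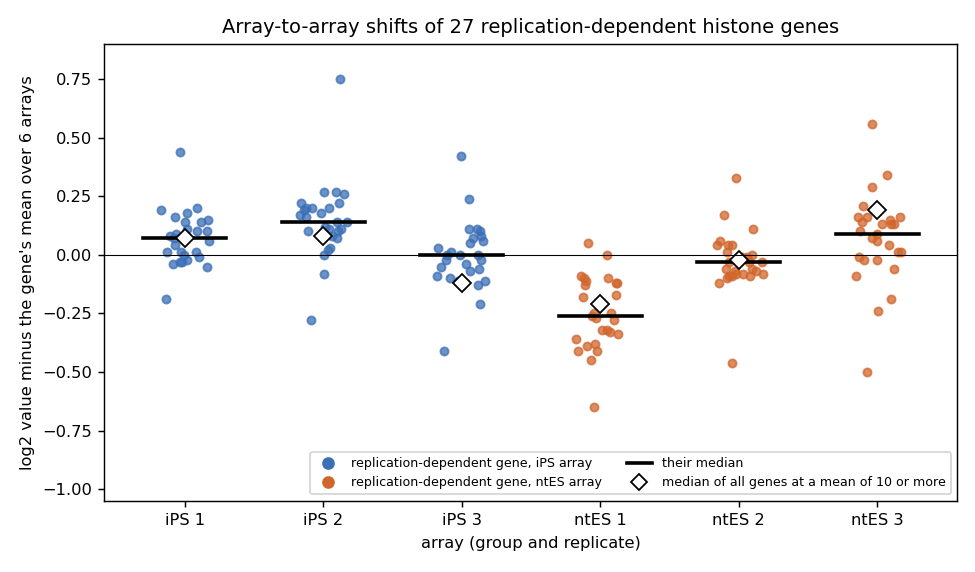
Log2 value of each of the 27 replication-dependent histone genes on each array, minus that gene's mean over 6 arrays; the black line is their median and the diamond the median of all 2174 genes with a mean of 10 or more. The diamonds fall from 0.07 on iPS 1 to -0.21 on ntES 1 and reach 0.19 on ntES 3, and the histone medians run from -0.26 on ntES 1 to 0.14 on iPS 2.

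Quantile normalization gives all arrays 1 distribution. With it 13 replication-dependent genes passed as lower and 2 as higher, and over all members 16 were lower and 5 higher. All 7 members called before were among these 21. In the whole table the same step raised the calls to 30.7% of genes, 15.8% lower and 14.9% higher. H1f5 then differed by -0.18 ± 0.05, H2bc18 by -0.22 ± 0.05 and H4c14 by -0.19 ± 0.05 (log2, SE; adjusted p = 0.0213, 0.00969 and 0.0231, limma). H1f2 and the testis gene H2ac1 passed as higher, at 0.23 ± 0.04 and 0.33 ± 0.05 (adjusted p = 0.00498 and 0.00223, limma). The median over the 43 members was -0.13 as before. Without ntES replicate 3, whose spread was the widest, 8 replication-dependent genes passed as lower, where 11.9% of all genes did. Centring each array on its median gave 3 as lower (H3c15, H2bc22 and H3c7), and over the whole table it turned the share of calls that were higher from 45.9% to 30.1%.

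Another 33 probe sets carry several symbols that include a histone gene, and they are not members. Of the 33, 25 lay below 0, 1 rose and 2 fell, with a median of -0.09. All 9 annotated to several H3 cluster genes lay below 0, from -0.24 to -0.01, and all 6 annotated to several H2B cluster genes from -0.52 to -0.04, and none of these 15 passed. Of 5 annotated to several H4 cluster genes, 1 fell, 2 lay below 0 and the range was -0.36 to 0.12. A single probe set annotated to many H2A genes fell by 0.72, and 1 of 5 for the testis H2A.L genes rose by 0.54. The 5 probe sets that hold a gene of the replacement variant H3.3 beside another gene lay between -0.35 and 0.00, and none passed.

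The germ-line members were mostly dim and lay slightly above 0. Of 10, H1f6 rose and none fell, 9 lay above 0, and the median difference was 0.11. Only H2ac1 and H2bc1 read at or above the median probe set. H1f6, the testis linker histone H1t, lies within the chromosome 13 cluster and read 6.84, 6.71 and 6.78 in iPS and 7.28, 7.13 and 7.12 in ntES cells. All ntES values were higher, by 0.40 ± 0.08 (log2, SE, n = 3 each; adjusted p = 0.012, limma), a 1.32-fold rise in a probe set below the median. Without iPS replicate 2 or ntES replicate 2 it did not pass, at an adjusted p of 0.0869 and 0.062. H2ac1 and H2bc1 encode TH2A and TH2B, testis and egg histones known to help reprogramming, and lie side by side. H2ac1 read 9.75, 9.76 and 9.74 in iPS and 9.80, 10.07 and 10.20 in ntES cells. The groups did not overlap, but the difference of 0.27 ± 0.10 did not pass (adjusted p = 0.13, limma). It passed without ntES replicate 1 (0.39 in difference; adjusted p = 0.0129, limma). H2bc1 differed by 0.05 ± 0.09. The oocyte linker H1f8 differed by 0.06 and the spermatid linker H1f7 by 0.14, and the testis genes H2ab1, H2ap, H2al2a and H2bl1 by 0.04 to 0.14. The H2B family gene H2bfm differed by -0.05. After quantile normalization H1f6 and H2ac1 differed by 0.31 and 0.33. H1f7, H2ab1, H2ap, H2al2a and H2bc1 then differed by 0.02 to 0.07, and H1f8, H2bl1 and H2bfm by -0.02, -0.01 and -0.12. The pseudogene H2bu1-ps differed by -0.24 ± 0.11 (adjusted p = 0.196, limma).

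**Figure D4:**
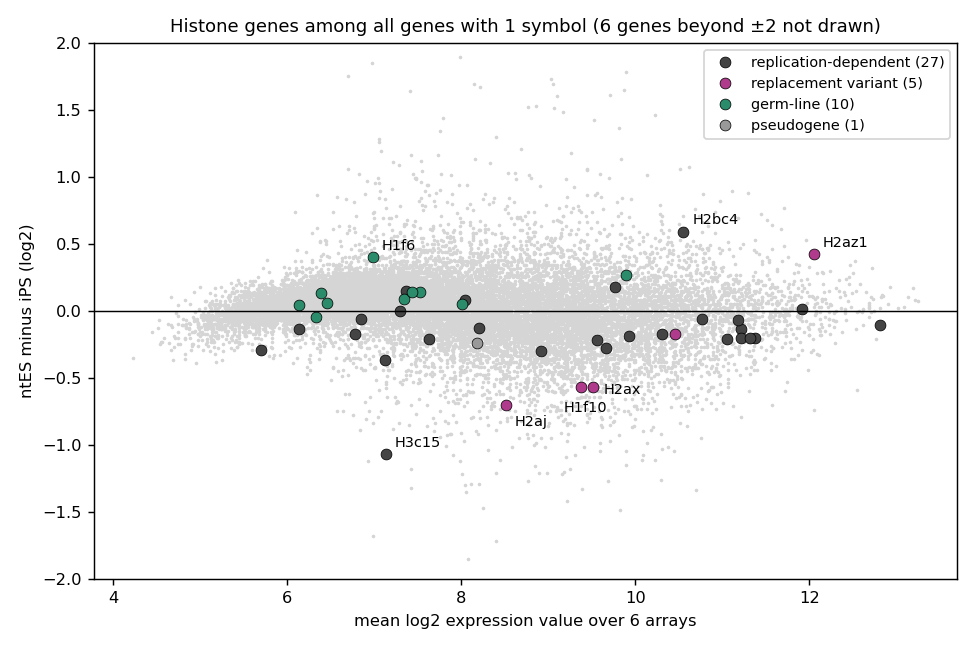
Log2 difference, ntES minus iPS, against the mean log2 value over 6 arrays, for histone genes by kind and for all 19308 genes with 1 symbol in grey; 6 genes beyond 2 in size are not drawn. Of the 27 replication-dependent genes 22 lie below 0 and 5 above, the called ones being H3c15 at -1.07 and H2bc4 at 0.59, and most germ-line genes lie at low levels just above 0.

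Promoter sequence was set beside these values because histone genes share short upstream elements. The octamer, bound by POU factors such as Oct-1, is typical of H2B genes, the CCAAT box binds NF-Y, and the TATA box places the start of transcription. The sequences come from RefSeq (GRCm38.p6), which gave a window for 37 of the 43 members, and the 250 bases before the annotated start were searched on both strands. The octamer ATTTGCAT was in 9 of 37 member windows, all of H2A or H2B genes. It was in 1.6% of the 32851 windows counted, which leave out a chromosome that holds no member. The 9 member windows held 7 positions, since H2bc8 and H2ac8 share 1 between their opposed starts, as do H2ac1 and H2bc1. The CCAAT motif was in 29 of 37 member windows and in 33.8% of those counted. The TATAAA motif was in 15 of 37 and in 12.4%. The 9 genes with an octamer match differed by -0.30 to 0.27 and none passed the test, a count that for 9 genes is near the 11.4% of all genes. After quantile normalization, where 30.7% of all genes passed, 5 of the 9 did. H2ac1 passed as higher and H2ac4, H2bc14, H2bc18 and H2bc3 as lower. Whether the octamer has a part in this was not tested. Of the 5 called members with a window, none held the octamer or TATAAA match, and H1f6, H2az1 and H2aj held CCAAT.

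The 4 windows shown first are of replication-dependent genes that hold these elements and did not pass the test, and the 4 shown next are of members that did. Each is the 150 bases before the start, 5′ to 3′ on the gene's strand, with matches to the 3 motifs on either strand in capitals. They lie at chr3:96269550-96269699 (plus strand) for H2bc18, chr13:23571250-23571399 (plus) for H2bc8, chr13:23750938-23751087 (plus) for H2ac4 and chr13:21780626-21780775 (minus) for H1f5. Those of called members lie at chr13:23695661-23695810 (plus) for H1f6, chr3:137864337-137864486 (plus) for H2az1, chr6:136808098-136808247 (plus) for H2aj and chr3:96239128-96239277 (minus) for H3c15.
H2bc18: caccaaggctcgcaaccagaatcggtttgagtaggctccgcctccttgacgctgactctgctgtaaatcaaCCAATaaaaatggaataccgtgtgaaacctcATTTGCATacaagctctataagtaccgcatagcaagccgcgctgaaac
H2bc8: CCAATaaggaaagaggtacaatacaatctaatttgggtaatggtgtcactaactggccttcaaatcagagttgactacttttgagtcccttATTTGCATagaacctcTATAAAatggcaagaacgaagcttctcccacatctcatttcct
H2ac4: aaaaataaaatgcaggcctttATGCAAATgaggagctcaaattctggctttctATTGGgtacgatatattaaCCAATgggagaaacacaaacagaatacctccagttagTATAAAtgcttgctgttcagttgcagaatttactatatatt
H1f5: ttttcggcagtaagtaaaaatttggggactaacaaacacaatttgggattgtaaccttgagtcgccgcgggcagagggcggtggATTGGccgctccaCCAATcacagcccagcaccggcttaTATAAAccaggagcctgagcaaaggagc
H1f6: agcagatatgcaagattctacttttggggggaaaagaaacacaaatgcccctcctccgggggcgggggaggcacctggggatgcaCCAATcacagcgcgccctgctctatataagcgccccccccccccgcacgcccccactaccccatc
H2az1: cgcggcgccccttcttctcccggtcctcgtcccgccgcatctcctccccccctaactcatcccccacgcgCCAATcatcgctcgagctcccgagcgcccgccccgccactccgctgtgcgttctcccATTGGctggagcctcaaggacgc
H2aj: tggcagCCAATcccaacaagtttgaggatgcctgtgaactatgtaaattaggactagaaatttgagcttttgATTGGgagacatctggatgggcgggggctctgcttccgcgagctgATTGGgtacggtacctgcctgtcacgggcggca
H3c15: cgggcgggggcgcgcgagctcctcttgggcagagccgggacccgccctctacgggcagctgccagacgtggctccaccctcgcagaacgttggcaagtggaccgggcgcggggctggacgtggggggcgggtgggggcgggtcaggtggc
H2bc18 and H2bc8 carry the octamer on the gene's strand and H2ac4 its reverse complement, each with a CCAAT match, and H2bc8 and H2ac4 also a TATAAA match. H1f5 has CCAAT in both orientations and a TATAAA match. H1f6, H2az1 and H2aj have CCAAT matches alone, and the window of H3c15 holds none of the 3 motifs. A match is only a match of letters.

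Genes that make, cut and carry histone RNA or protein were read from fixed lists. Of 30 genes of histone mRNA synthesis and 3′ end formation, 2 rose and 2 fell (13.3%, beside 11.4% of all genes). Their median difference was -0.04. Slbp, which binds the stem-loop of histone mRNA and is needed for its processing, read 9.64, 9.80 and 9.50 in iPS and 9.18, 9.37 and 9.48 in ntES cells. The groups did not overlap, but the difference of -0.30 ± 0.11 did not pass (adjusted p = 0.106, limma), though it did without ntES replicate 3 (-0.37; adjusted p = 0.0367, limma). Npat, the coactivator at histone gene clusters, differed by -0.01 ± 0.11 (adjusted p = 0.964, limma). Lsm10, a subunit of the U7 particle that directs the cut, rose by 0.38, and Cdk2, whose complex with cyclin E acts on Npat, by 0.43. The cleavage factor subunits Cpsf2 and Cpsf4 changed by -0.42 and -0.45. Leaving out iPS replicate 1, iPS replicate 2 or ntES replicate 2 ended all 4 calls, at adjusted p of 0.115 to 0.184. Lsm10 and Cdk2 also did not pass without iPS replicate 3 (0.115 and 0.126) or after median centring (0.081 and 0.083).

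Of 38 histone chaperones and deposition factors, 1 rose and 2 fell (7.89%, beside 11.4% of all genes), with a median of -0.06. Atrx, the remodeller that places H3.3 with Daxx, rose by 0.60 ± 0.11 (adjusted p = 0.00736, limma). Ubn2, a partner of the H3.3 chaperone Hira, changed by -0.57 ± 0.10 (adjusted p = 0.00508, limma). Vps72, which carries H2A.Z to its exchange complex, changed by -0.49 (adjusted p = 0.0301, limma). Its call ended when replicate 1 or 2 of either group was left out, at 0.145, 0.155, 0.0542 and 0.128.

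The largest fall in these lists of histone factors was in a variant that the symbol rule leaves out. Macroh2a2 encodes a macroH2A, a large H2A variant of silent chromatin known to hold back reprogramming. It read 10.38, 10.34 and 10.11 in iPS and 9.21, 9.37 and 9.45 in ntES cells. The groups lay far apart, with a difference of -0.93 ± 0.10 (log2, SE, n = 3 each; adjusted p = 0.000339, limma). Macroh2a1 read 11.22, 11.18 and 11.00 in iPS and 10.54, 10.75 and 11.03 in ntES cells, with overlap, and differed by -0.36 ± 0.12 (adjusted p = 0.0934, limma). Cenpa, the H3 variant of centromeres, differed by -0.25 ± 0.10 (adjusted p = 0.136, limma). Without ntES replicate 3 Macroh2a1 and Cenpa passed as lower, at -0.49 and -0.34 (adjusted p = 0.00978 and 0.0152, limma). Of 5 measured genes on this list 1 fell, and the other two, Macroh2a3 and Hils1, differed by -0.17 and 0.25.

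Cell cycle lists were read because replication-dependent histone RNA follows S phase. Of 50 S phase genes, 3 fell and none rose (6.0%, beside 11.4% of all genes), with 33 below 0 and a median of -0.08. Pola2, a subunit of the primase complex, the clamp loader gene Rfc4 and the flap nuclease Fen1 changed by -0.57, -0.41 and -0.38. With iPS replicate 1, iPS replicate 2 or ntES replicate 2 left out none of the 3 passed (adjusted p 0.0804 to 0.234), and Rfc4 also did not without iPS replicate 3 (0.0561) or ntES replicate 1 (0.097). Of 32 genes of G2 and M phase, 7 fell and none rose (21.9%, beside 11.4% of all genes and 13.5% of genes with a mean of 10 or more), with a median of -0.12. Cenpe, a kinesin of the kinetochore, and Foxm1, a factor that drives mitotic genes, changed by -1.11 and -0.64 (adjusted p = 0.000242 and 0.0015, limma). The phosphatase gene Cdc25c and the checkpoint gene Mad2l1 changed by -0.49 and -0.44 (adjusted p = 0.0129 and 0.0382, limma). Both calls ended when iPS replicate 1, iPS replicate 2 or ntES replicate 2 was left out, at 0.0656, 0.0849 and 0.0606 for Cdc25c and 0.122, 0.191 and 0.139 for Mad2l1. The call of Mad2l1 also ended without iPS replicate 3 (0.0545) or ntES replicate 1 (0.0653). The part of cell cycle in the histone values was not tested.

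Markers of other cells also moved between the groups. Among 37 markers of fibroblasts and feeders, 12 rose and 1 fell (35.1%, beside 11.4% of all genes). Of the 37, 34 lay above 0, where 40.1% of all genes lay below 0. Their mean log2 level was 9.66 to 9.95 on iPS arrays and 9.95 to 10.23 on ntES arrays, and 5 of the 37 read below the median probe set, the lowest being Fap at 6.54. Of 17 genes of the 2-cell-like state, 14 rose and 1 fell (88.2%). Their mean level was 7.12 to 7.17 on iPS and 8.0 to 8.23 on ntES arrays. Of the 17, 10 read below the median probe set, the lowest being Tcstv3 at 6.11. Of 26 pluripotency markers, 8 fell and none rose (30.8%), with a median of -0.17. Esrrb and Dppa3 changed by -0.79 and -0.86 (adjusted p = 0.00135 and 0.000143, limma). The mean level of the 26 was 10.73 to 10.93 on iPS and 10.47 to 10.85 on ntES arrays. Of 27 lineage markers, 7 rose and 4 fell (40.7%), and 13 of the 27 read below the median probe set. The part of these cells or states in the histone values was not tested.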

How the data were processed

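Biotin labelling of total RNA used Affymetrix's WT Terminal kit, and GCOS 1.4 was the software, per the labels' protocols and the submitters' processing notes. The deposited table holds 1 log2 expression value per probe set and array, as the authors made it. The log2 scale was taken from the values. The sources used here do not give background correction, normalization, summary or build (not stated). Genes were named from the platform annotation, and all 43 members were found in the RefSeq gene table of GRCm38.p6 by gene identifier. Groups came from sample titles.

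The difference ntES minus iPS was estimated without covariates by lmFit and eBayes of limma 3.58.1 (R 4.3.3) on all 23344 probe sets, and p-values were adjusted by Benjamini-Hochberg over all of them. The fit was tested on simulated data. The number of arrays limits the precision. Members, kinds and gene lists were chosen with earlier results of these data known, and lists are described by counts and medians alone. Replication-dependent genes were the Hist1 to Hist4 cluster genes under their newer names, without germ-line members. The genes named were each class's called members (the 8 of largest difference at most; the 2 of smallest p where under 2 were called), the replacement variants, the germ-line members, Slbp, Npat, and up to 4 called members of a list of histone or cell cycle genes. Further genes were picked with their values in view. As alternatives, arrays were quantile normalized or centred on their medians, dim probe sets or single arrays were left out, and a gene's probe sets were averaged. The fit was repeated with a robust variance trend, with array weights, with the replicate number as a block and at a threshold of 0.01. Leaving out the 2 arrays of narrowest spread was chosen after seeing the data. Python 3.11.15, pandas 2.3.3 and matplotlib 3.10.9 were used for counts, sequences and figures.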

Additional observations from a re-analysis of the deposited data

How the results depend on the processing

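Over all probe sets 2643 (11.3%) were called, 1212 higher and 1431 lower. Quantile normalization gave 7035 (30.1%), 3339 higher and 3696 lower. Array weights gave 13147 (56.3%), 7904 higher and 5243 lower, and a threshold of 0.01 gave 1150 (4.93%). Median centring gave 11.7% and a variance trend 15.9%. Without dim probe sets 19.3% of the rest were called. Leaving out 1 array gave 1014 to 5044 (4.34% to 21.6%), 469 to 2259 higher and 545 to 2785 lower. Members called higher numbered 3, and 5 after quantile normalization, 9 with array weights, 0 at the threshold of 0.01 and 0 to 4 with 1 array left out, the 0 without iPS replicate 2 or ntES replicate 2 (limma; 14 members passed an unadjusted p of 0.05 in the full fit). Members called lower numbered 4, and 16 after quantile normalization, 19 with array weights and 3 to 11 with 1 array left out, the 11 without ntES replicate 3. Replication-dependent genes called higher numbered 1, and 2 after quantile normalization, 2 with array weights, 0 at 0.01 and 0 to 1 with 1 array left out. Those called lower numbered 1, and 13 after quantile normalization, 3 after median centring, 0 without dim probe sets, 3 with a variance trend, 14 with array weights and 1 to 8 with 1 array left out. Without dim probe sets 26 members were left, and H3c15 and H1f6 were not among them. The array weights rested mostly on ntES replicate 2, at 10.9 against 0.218 to 1.99. Without the 2 arrays of narrowest spread 4 members were higher and 4 lower, and all 7 called members were among them. The median difference of members lay between -0.19 and -0.06 over the alternatives that gave it. No named gene that was called reversed its direction.

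The labels give both groups replicate numbers, but same-numbered arrays did not deviate together, with correlations of -0.431, -0.103 and -0.721. With the replicate block 1983 probe sets were called in place of 2643, and the same 7 members, 3 higher and 4 lower. Of the other genes named, Lsm10, Fen1 and Btn2a2 lost their call under the block (adjusted p = 0.0645, 0.0603 and 0.11, limma).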

Other observations

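The histone genes of chromosome 13 lie among other genes, most of which were dim. Of 36 genes with 1 symbol between the first and last replication-dependent member there, in the gene order of GRCm38.p6, 34 read below the median probe set. Btn2a2, of the butyrophilin family, rose by 0.34 (adjusted p = 0.0177, limma) and was picked out with its value in view. Its call ended when iPS replicate 1 or 2 was left out (0.0863 and 0.116), or ntES replicate 2 (0.106). None of the 36 fell, and their differences ran from -0.26 to 0.34 with a median of -0.03, beside -0.14 for the 20 replication-dependent genes of that chromosome. On chromosome 6 H2aj and H4f16 are neighbours in that gene table, and they differed by -0.70 and -0.19.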
